A study of Mus musculus with 24 samples.

Results

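Acetylcholine receptors were followed in the ventral hippocampus of 2 inbred mouse strains as 8 transcripts, taken by name from the 33902 rows of a single-nucleus RNA sequencing (snRNA-seq) table. The members were the 5 muscarinic receptors Chrm1 to Chrm5 and the 3 nicotinic subunits Chrna4, Chrna7 and Chrnb2. They were named by symbol and not by a threshold on a measured value, with earlier results of these data known. The animals were adult males of C57BL/6J (B6) and DBA/2J (D2) aged 10 to 16 weeks. Each strain had 2 snRNA-seq libraries, numbered 2 and 3 in the tables, and tissue of about 2 animals was combined in each. The p-values thus rest on pools of animals, with the spread of a transcript estimated partly from other transcripts. Nuclei were sorted on NeuN, a protein of neuronal nuclei, towards a set share of neurons, so the shares of cell types were set partly by the sort. The authors' 17 cell types comprised 12 neuronal and 5 non-neuronal (NN) types, and counts summed over the nuclei of each type in each library were analysed. Chromatin accessibility (snATAC-seq) was measured in separate nuclei of both strains, without NeuN, in 15 of those cell types.

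Acetylcholine reaches the hippocampus mainly from neurons of the septum and acts on muscarinic and nicotinic receptors. Muscarinic receptors are coupled to G proteins: M1, M3 and M5 act through Gq and phospholipase C, while M2 and M4 act through Gi and lower cyclic AMP. Nicotinic receptors are ion channels of subunits around a pore, among which α7 can form channels alone and α4 combines with β2.

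The 68 columns of cell type and library held between 139713 counts (in CR-CR, Cajal-Retzius cells) and 11352265 counts (in Exc-DG, dentate gyrus granule neurons), from 45 to 1489 nuclei each. Levels are given as CPM, the count divided by the column total and scaled to the same total in every column, with the mean and SD over the 4 libraries. Counts included introns, and levels of different genes are not compared. Of 15 cell types with a marker list, 12 ranked at the top of that list. The 3 CA1 types shared 1 list and were counted as top because they held its ranks 1, 2 and 3. Exc-DG ranked second for the dentate gyrus list and Inh-Lamp5 second for the Lamp5 list, both behind CR-CR. Exc-ENT ranked 4 for the list of cortical neurons, behind Exc-Gpc6, Exc-Cdh12 and astrocytes. Exc-Gpc6 and Exc-Cdh12 had no list of their own. The reads of B6 were mapped to mm10, and those of D2 to a copy of it carrying the D2 SNPs, so that strain and reference cannot be told apart. In D2, 3022 symbols had 50 or more counts and none in B6, and the reverse held for 129 symbols. Some of these lie inside members, as given below.

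The promoters of Chrna7, Chrm3 and Chrm2 are shown because these were the members whose transcripts differed between strains. Each window runs 5′ to 3′ from 250 bases before to 50 bases after the start in RefSeq (GRCm38.p6), and CpG dinucleotides are in capitals. All 3 lie wholly within an snATAC-seq peak.
Chrna7 (chr7:63212477-63212776, minus strand): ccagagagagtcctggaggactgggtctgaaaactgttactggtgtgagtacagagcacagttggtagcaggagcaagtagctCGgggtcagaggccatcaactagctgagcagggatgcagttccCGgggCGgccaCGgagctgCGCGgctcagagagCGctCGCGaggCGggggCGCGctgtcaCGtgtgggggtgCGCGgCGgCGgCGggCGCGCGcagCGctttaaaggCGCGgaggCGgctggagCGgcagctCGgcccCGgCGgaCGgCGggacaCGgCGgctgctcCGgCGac
Chrm3 (chr13:10360754-10361053, minus strand): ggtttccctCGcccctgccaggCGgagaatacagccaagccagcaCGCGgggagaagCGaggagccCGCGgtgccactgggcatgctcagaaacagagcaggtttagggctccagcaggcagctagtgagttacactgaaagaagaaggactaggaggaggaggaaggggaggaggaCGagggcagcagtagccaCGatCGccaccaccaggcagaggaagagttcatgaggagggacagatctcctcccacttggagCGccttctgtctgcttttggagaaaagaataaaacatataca
Chrm2 (chr6:36387834-36388133, plus strand): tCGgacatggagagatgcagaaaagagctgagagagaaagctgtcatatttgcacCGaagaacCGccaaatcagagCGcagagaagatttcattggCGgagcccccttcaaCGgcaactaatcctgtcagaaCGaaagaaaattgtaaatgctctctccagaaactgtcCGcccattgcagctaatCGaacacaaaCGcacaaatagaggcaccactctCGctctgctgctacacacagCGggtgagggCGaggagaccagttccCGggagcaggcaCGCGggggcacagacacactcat
The Chrna7 window held 35 CpGs, and 6.96% of 32817 promoter windows of the same length held as many or more. The Chrm2 window held 16 CpGs (33.0% of windows held as many) and the Chrm3 window 11 (41.4%), against a median of 7 over all windows. Of the 7 members with a window in the table, Chrna4 had 33 CpGs and Chrm5 had 3. The motif GGGCGG, read on both strands, was present in the Chrna7 and Chrm2 windows and not in the Chrm3 window, and 35.6% of all windows held it.

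Among the Gq-coupled receptors, Chrm3 (chr13:9875486-10360847, ENSMUSG00000046159.16) was highest in Exc-Cdh12, at 1160 CPM ± 317 (SD, n = 4), and lowest in astrocytes (NN-Astro), at 13.7 CPM ± 7.36. Exc-Cdh12 overlapped with the next type in the order, Exc-ENT at 732 CPM ± 52.5, and the libraries of Exc-Cdh12 ranged from 705 to 1380 CPM. The Inh-CGE interneurons had 658 CPM ± 60.1 and Exc-CA3 had 619 CPM ± 80.6. The 3 CA1 types had 439 CPM ± 110 (Galntl6), 407 CPM ± 96.9 (Fras1) and 264 CPM ± 61.3 (Camk2d). Exc-DG, at 38.8 CPM ± 2.43, and Exc-Gpc6, at 43.9 CPM ± 23.9, were the lowest neuronal types. Of 16 neighbouring pairs in the order, 1 did not overlap over the 4 libraries, that of Inh-MGE (375 CPM ± 36.3) and Exc-CA1-Camk2d, although libraries of other types above Inh-MGE reached into the range of Exc-CA1-Camk2d.

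Chrm1 (chr19:8663789-8683587, ENSMUSG00000032773.9) was highest in Exc-DG, at 61.3 CPM ± 5.57, next to Exc-CA1-Galntl6 at 60.4 CPM ± 5.40, and the 2 types overlapped. The lowest excitatory type was Exc-ENT, at 35.7 CPM ± 4.26, and Inh-MGE had 15.4 CPM ± 3.04. No neighbours in the order stood apart. Chrm5 (chr2:112479171-112480769) had 82 counts in all columns together and a highest level of 1.43 CPM ± 0.549 in Exc-CA1-Camk2d. The next 2 types were the other CA1 types, at 1.01 and 0.973 CPM. It had 0 counts in 7 cell types. In Exc-Gpc6 a count of 0 allows up to 0.367 CPM (3 counts over the 4 libraries), and in CR-CR up to 2.37 CPM, which covers counting error only. Chrm5 was annotated as 1 transcript of 1599 bp, and the part of this gene model in its low counts was not tested.

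Among the Gi-coupled receptors, Chrm2 (chr6:36388084-36528414, ENSMUSG00000045613.9) was highest in Exc-Gpc6, at 164 CPM ± 41.9, above Inh-MGE at 105 CPM ± 16.5, and the libraries of these 2 did not overlap, while 1 library of Inh-CGE (145 CPM) lay above both D2 libraries of Exc-Gpc6. Inh-CGE (104 CPM ± 29.8), Exc-ENT (86.2 CPM ± 11.8) and Exc-Cdh12 (66.9 CPM ± 8.92) followed, and every library of these 5 types lay above every library of the other types, which began with the oligodendrocyte precursors (NN-OPC) at 22.7 CPM ± 5.69. Exc-DG had 0.977 CPM ± 0.415 and Exc-CA1-Galntl6 0.984 CPM ± 0.313, 0.595% and 0.599% of the level in Exc-Gpc6. Chrm4 (chr2:91927249-91928688) had 121 counts in all columns together, 85 in B6 and 36 in D2. Its highest mean, 2.08 CPM ± 2.40 in CR-CR, rested on 4 counts, all in B6. Chrm4 was likewise annotated as 1 transcript, of 1440 bp, and the part of this gene model in its low counts was not tested.

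Among the nicotinic subunits, Chrna7 (chr7:63098692-63212569, ENSMUSG00000030525.8) was highest in 2 interneuron types, Inh-CGE at 143 CPM ± 13.4 and Inh-Lamp5 at 139 CPM ± 44.3. Exc-CA1-Galntl6 (126 CPM ± 36.5), Exc-CA3 (118 CPM ± 9.20) and Exc-Gpc6 (107 CPM ± 28.1) overlapped with them in turn. Exc-ENT (45.4 CPM ± 6.66) did not overlap with its neighbour NN-OPC (30.9 CPM ± 2.90), but CR-CR, next in the order, had a library at 61.6 CPM. The order depended on the strain: Exc-CA1-Galntl6 ranked first in B6, at 158 CPM, and Inh-Lamp5 ranked first in D2, at 177 CPM. Chrna4 (chr2:181018380-181043546) was highest in Exc-ENT, at 18.6 CPM ± 3.66, and no library of Exc-ENT overlapped with Exc-Cdh12 at 11.5 CPM ± 2.82. NN-OPC was next, at 8.47 CPM ± 2.19. Its partner Chrnb2 (chr3:89746195-89764632) ranged over the neuronal types from 20.7 CPM ± 2.79 in Inh-MGE to 13.6 CPM ± 1.17 in Exc-CA1-Galntl6, apart from CR-CR at 9.02 CPM ± 2.26.

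**Figure D1:**
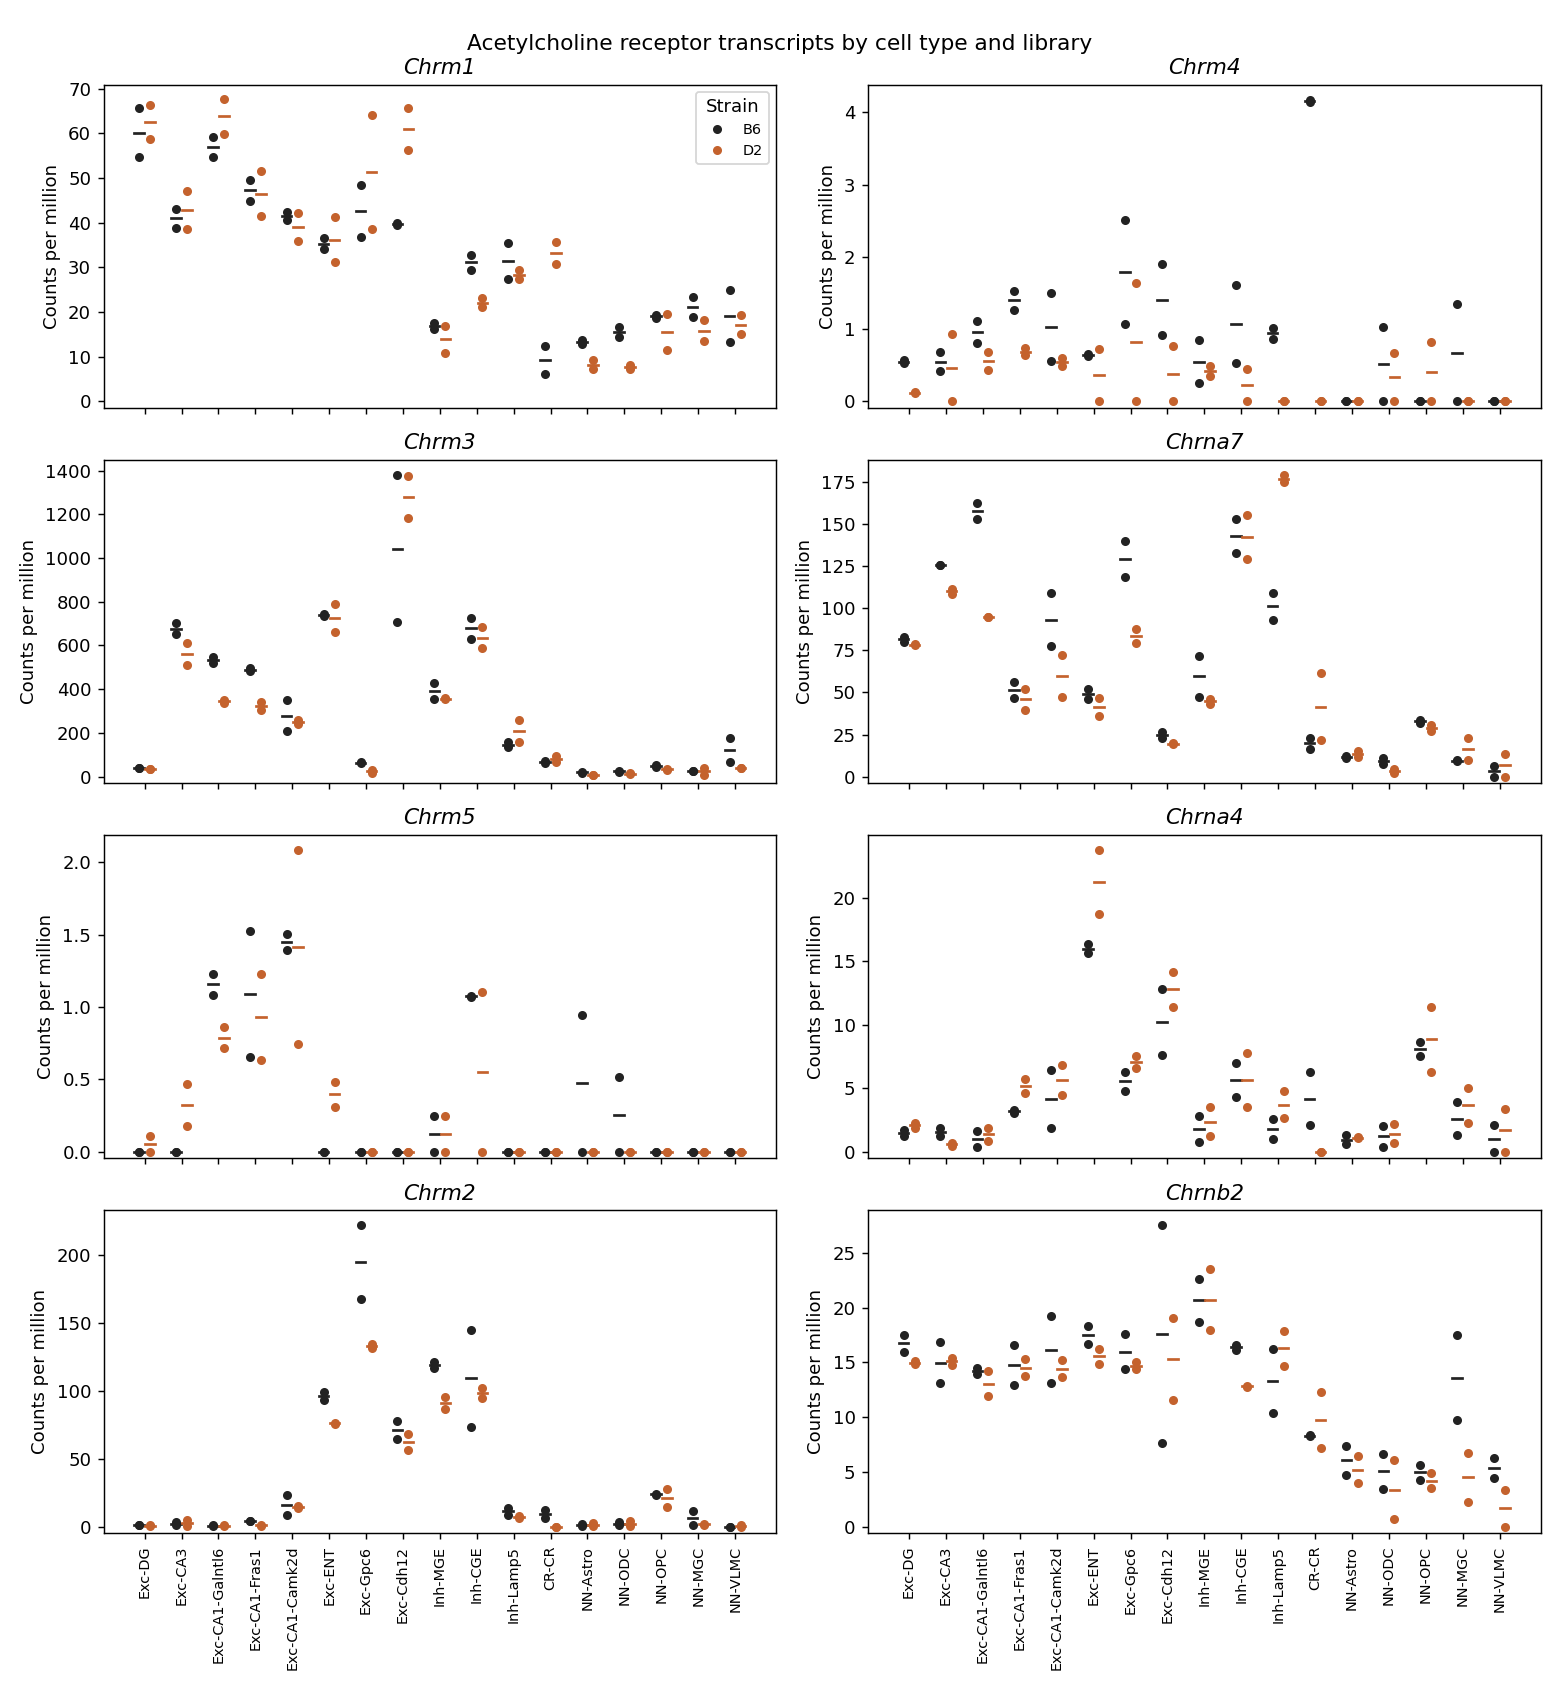
CPM of the 8 transcripts (vertical axes, linear, one scale per panel) in the 17 cell types (horizontal axis), with 1 point per library and a bar at the mean of the 2 libraries of a strain. Chrm2 is near 0 in Exc-DG and Exc-CA1-Galntl6 and highest in Exc-Gpc6, and Chrna7 in Inh-Lamp5 lies at 93.2 and 109 CPM in B6 and at 175 and 179 CPM in D2.

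Low levels in non-neuronal types were set beside those of Slc17a7, the vesicular glutamate transporter of excitatory neurons. Slc17a7 had from 11.0% (NN-OPC) to 20.2% (NN-MGC, microglia) of its highest level in the 5 non-neuronal types. Gad2, an enzyme of GABA synthesis, had from 0.551% to 1.45%. Gad1, another such enzyme, had from 1.35% (NN-MGC) to 10.3% (NN-OPC). Chrm3 had from 1.18% to 6.95% of its highest level there, between the percentages of Gad2 and Slc17a7 in each type. It lay below Gad1 in NN-Astro (1.18% against 2.34%) and NN-OPC (3.49% against 10.3%), and above it in NN-MGC and NN-VLMC. In oligodendrocytes (NN-ODC) both were at 1.61%. Chrna7 had 4.38% in NN-ODC, 8.75% in NN-Astro, 9.11% in NN-MGC and 3.45% in NN-VLMC. All of these lay below the percentages of Slc17a7 and above those of Gad2 and Gad1 in the same types. In NN-OPC the percentages were 21.6% for Chrna7, 13.9% for Chrm2, 28.2% for Chrm1, 22.2% for Chrnb2 and 45.5% for Chrna4, each above that of Slc17a7. Chrm1 was between 17.6% and 30.1% and Chrnb2 reached 43.7% (NN-MGC) in the 5 types, both above Slc17a7 in each. The source of the low levels was not tested.

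For each member the 3 genes whose mean log2(CPM + 1) over the 17 cell types was most like its own were found by Pearson's r, as a description. Those of Chrm1 included Camk2a (r = 0.93), a kinase of excitatory synapses, and Cacna1e (r = 0.94), a calcium channel. Those of Chrm2 were Bean1 (r = 0.88), Gm20098 and Lgi2 (both 0.86). The top gene for Chrm3, Gm47405 (r = 0.97), lies inside Chrm3 on the same strand and may share its reads. Gm26861 (r = 0.95) overlaps Chrm3 on the opposite strand, and Bud23 followed (r = 0.89). Chrna7 was nearest to Ube2ql1, Gm14817 and Slc44a5 (r = 0.90 each). Chrna4 had r = 0.82 with Dpp10 and r = 0.31 with its partner Chrnb2, which was nearest to Grin1os (r = 0.96). Chrm4 (Cfap61, r = 0.86) and Chrm5 (Gpr101, r = 0.86) rest on few counts. All points share the 4 libraries and depths of the cell types.

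The strains were then compared within each cell type with edgeR's quasi-likelihood test over all transcripts, as D2 minus B6, at adjusted p under 0.05. Of the 136 pairs of member and cell type, 79 passed the filter on low counts. Chrm4 and Chrm5 were tested in no cell type. Of the 79 pairs, 14 (17.7%) were lower in D2, where 9.25% of all tested pairs of transcript and cell type were lower, and 1 (1.27%) was higher, where 12.9% of all were higher. The latter share includes symbols counted in D2 only: with transcripts required to have counts in both strains, 6.17% of all pairs were higher and 8.27% lower, and of the member pairs 1 was higher and 12 lower. The median log2 fold change over the 79 pairs was -0.18, and the median of all transcripts lay between 0.01 and 0.06 in the 17 cell types. The calls fell on Chrm3 (6), Chrna7 (5) and Chrm2 (4). In bulk sums a lower level cannot be told apart from fewer nuclei of a subtype within the cell type. Of the 15 calls, 5 held under each of the alternatives tried and 8 were lost with DESeq2.

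Chrna7 was lower in D2 in 4 cell types and higher in 1. In Exc-CA1-Galntl6 the B6 libraries had 153 and 163 CPM and the D2 libraries 95.0 and 94.8 CPM. The groups were far apart, and the log2 fold change was -0.76 ± 0.08 (SE, adjusted p = 6.38e-07, edgeR). In Exc-Gpc6 the B6 libraries had 140 and 119 CPM and the D2 libraries 79.1 and 88.0 CPM, again without overlap (-0.67 ± 0.13, adjusted p = 8.95e-05). In Exc-CA1-Camk2d the values were 109 and 77.4 CPM in B6 and 72.4 and 47.3 CPM in D2 (-0.64 ± 0.20, adjusted p = 0.0435), with a gap between the strains smaller than the spread within either. This call was lost with DESeq2 (adjusted p = 0.133), with RLE normalization (0.0563), among transcripts counted in both strains (0.0730) and without D2 library 3 (-0.36, adjusted p = 0.545).

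In Inh-Lamp5 the direction was the opposite. The B6 libraries had 93.2 and 109 CPM and the D2 libraries 175 and 179 CPM, a log2 fold change of 0.76 ± 0.16 (adjusted p = 0.000819, edgeR), which DESeq2 did not call (0.74, adjusted p = 0.109). Neither strain's libraries came near those of the other. In Inh-CGE, at a similar level, the values were 133 and 153 CPM in B6 and 130 and 156 CPM in D2 (-0.03 ± 0.13), and the strains overlapped. Exc-DG had 80.1 and 82.9 CPM in B6 and 78.9 and 78.0 CPM in D2 (-0.08 ± 0.08, adjusted p = 0.489). In NN-ODC the call (-1.42 ± 0.50, adjusted p = 0.0469) rested on levels of 11.3 and 7.36 CPM in B6 and 4.32 and 2.02 CPM in D2. It was lost without any 1 of the 4 libraries (-2.03 to -0.98), and Slc17a7, a transcript of neurons, had a log2 fold change of -0.48 ± 0.19 in the same columns, whose part in the result was not tested.

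Chrm3 was lower in D2 in 6 cell types and higher in none. In Exc-CA1-Galntl6 the B6 libraries had 549 and 519 CPM and the D2 libraries 338 and 351 CPM (-0.66 ± 0.06, adjusted p = 1.69e-07, edgeR). In Exc-CA1-Fras1 they had 495 and 484 CPM against 306 and 342 CPM (-0.67 ± 0.08, adjusted p = 4.28e-07). In both CA1 types each D2 library lay well below each B6 library. In Exc-Gpc6, where the level was low, the values were 66.1 and 61.5 CPM in B6 and 31.6 and 16.4 CPM in D2 (-1.35 ± 0.20, adjusted p = 1.11e-06). In Exc-CA3 the B6 libraries had 701 and 653 CPM and the D2 libraries 612 and 511 CPM (-0.29 ± 0.09, adjusted p = 0.0199), which did not hold without B6 library 2 (-0.24, adjusted p = 0.129) or D2 library 3 (-0.15, adjusted p = 0.239).

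The 2 other Chrm3 calls were in non-neuronal types, where its percentages lay below those of Slc17a7. In NN-Astro the B6 libraries had 22.8 and 16.1 CPM and the D2 libraries 9.27 and 6.39 CPM (-1.22 ± 0.27, adjusted p = 0.000400, edgeR), and in the same columns Slc17a7 also fell, with a log2 fold change of -0.48 ± 0.14 (adjusted p = 0.00975). Its part in the result was not tested. In NN-VLMC, the vascular and leptomeningeal cells, the B6 libraries stood at 66.7 and 177 CPM and the D2 libraries at 40.4 and 38.5 CPM (-1.65 ± 0.36, adjusted p = 0.00117), and without B6 library 3 the value was -0.64 (adjusted p = 0.638). In Exc-Cdh12, the type with the highest level, the B6 libraries themselves differed, at 705 and 1380 CPM, against 1373 and 1183 CPM in D2 (0.25 ± 0.23). Without B6 library 3 the difference there was 0.84 (adjusted p = 2.66e-09) and without B6 library 2 it was -0.15 (adjusted p = 0.440), so the direction was decided by 1 library. In Exc-CA1-Camk2d, at 351 and 208 CPM in B6 against 239 and 259 CPM in D2 (-0.18 ± 0.19), it was likewise 0.23 without B6 library 2 (adjusted p = 0.159) and -0.51 without B6 library 3 (adjusted p = 0.000121).

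Chrm2 was lower in D2 in 4 cell types. In Exc-Gpc6 the B6 libraries had 168 and 222 CPM and the D2 libraries 135 and 132 CPM (-0.59 ± 0.13, adjusted p = 0.000389, edgeR), and without B6 library 3 the difference was -0.35 (adjusted p = 0.0825). In Inh-MGE they had 117 and 121 CPM against 95.7 and 87.0 CPM (-0.41 ± 0.11, adjusted p = 0.0147). In Exc-ENT they had 93.2 and 99.2 CPM against 76.0 and 76.5 CPM (-0.38 ± 0.10, adjusted p = 0.00399). The strains did not overlap in any of these 3 types. In Exc-CA1-Fras1 the call (-2.01 ± 0.45, adjusted p = 0.00139) concerned a level of 4.15 and 4.57 CPM in B6 and of 0.981 and 1.27 CPM in D2. Each was lost without 1 library: Inh-MGE without B6 library 3 (adjusted p = 0.0596) or D2 library 3 (0.189), Exc-ENT without B6 library 3 (0.0566) and Exc-CA1-Fras1 without D2 library 2 (0.0612), beside Exc-Gpc6 above. Of the 4 calls, the one in Exc-Gpc6 was the only one also made by DESeq2. In Inh-CGE the libraries of B6 stood at 145 and 73.8 CPM, around those of D2 (103 and 95.2 CPM).

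Chrm1, Chrna4 and Chrnb2 passed the test in none of 15, 10 and 13 cell types with edgeR, and DESeq2 called none either. At unadjusted p under 0.05 Chrm1 was lower in 3 and higher in 1, and Chrna4 and Chrnb2 in 0. Chrm1 log2 fold changes ran from -0.92 ± 0.35 in NN-ODC (adjusted p = 0.0708) to 0.57 ± 0.23 in Exc-Cdh12 (adjusted p = 0.193). Those of Chrna4 ran from -0.06 to 0.62, with 1 of 10 below 0. Those of Chrnb2 ran from -0.38 to 0.28, with 12 of 13 below 0 and a smallest adjusted p of 0.341.

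**Figure D2:**
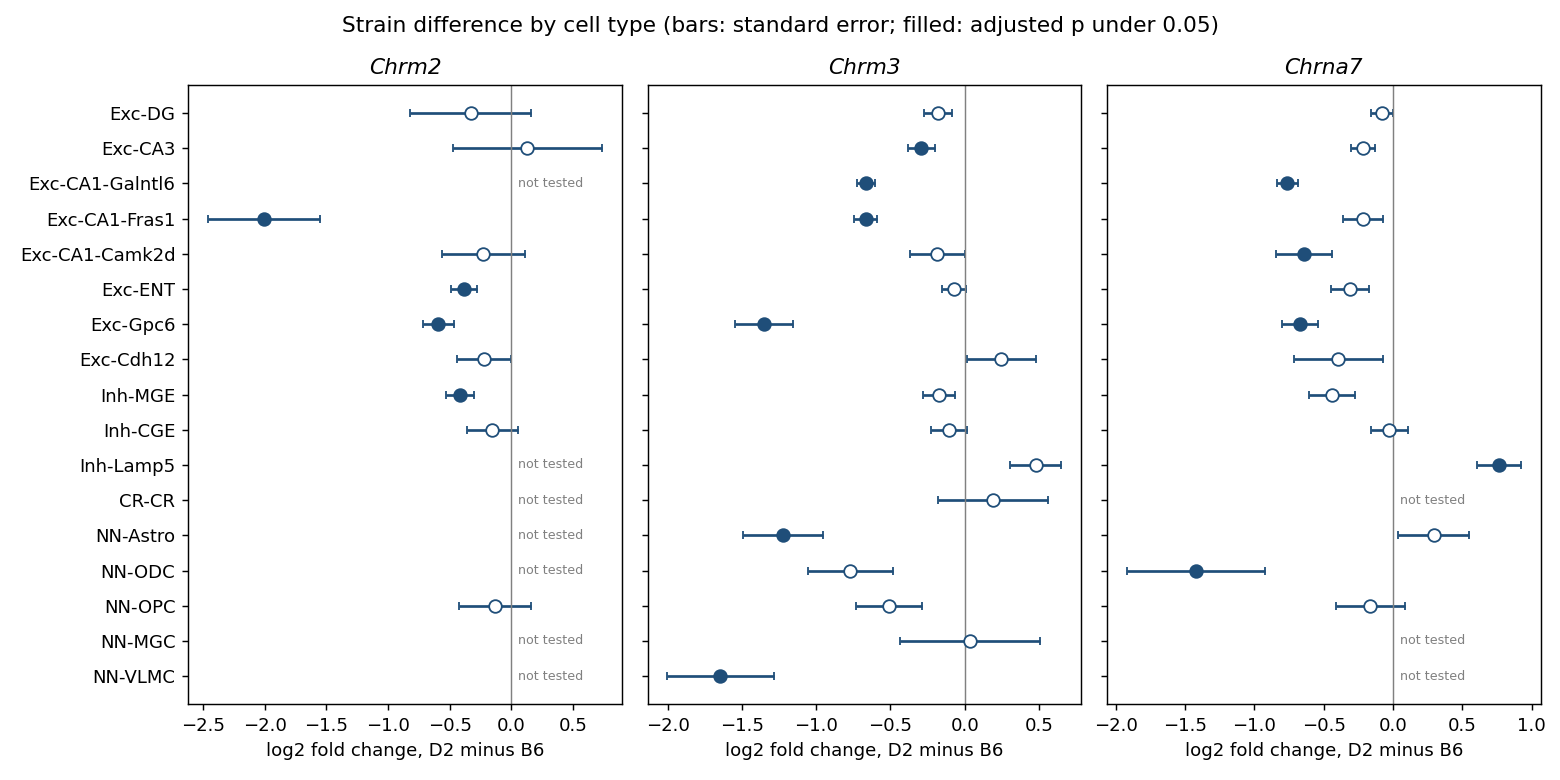
log2 fold change of D2 against B6 (horizontal axes) for Chrm2, Chrm3 and Chrna7 in each cell type (vertical axis). Bars are 1 standard error derived from the F statistic of edgeR, and filled points mark adjusted p under 0.05. For Chrna7 the filled point of Inh-Lamp5 lies at 0.76 and that of Exc-CA1-Galntl6 at -0.76.

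Whether the strain difference itself varied over cell types was tested as an interaction in 1 edgeR fit with the library as a term. It passed for 3 of the 7 members fitted, where 14.6% of 21050 transcripts passed: Chrna7 (adjusted p = 6.03e-06), Chrm3 (adjusted p = 2.95e-05) and Chrm1 (adjusted p = 0.0333). For Chrm1 it did not hold in neuronal types alone (adjusted p = 0.300), without B6 library 3 (0.473) or without D2 library 3 (0.567). For Chrm2 it passed only without B6 library 2 (adjusted p = 1.87e-05, against 0.861). When each cell type was set against the mean of the others, a comparison added after seeing the data, Chrna7 stood apart in Exc-CA1-Galntl6 (-0.73 ± 0.16, adjusted p = 0.00393) and in Inh-Lamp5 (0.88 ± 0.22, adjusted p = 0.0320). Chrm3 stood apart in Inh-Lamp5 (0.94 ± 0.24, adjusted p = 0.0437), where its own difference was 0.48 ± 0.17 (adjusted p = 0.0753) at 157 and 135 CPM in B6 and 159 and 261 CPM in D2. That difference was 0.11 without D2 library 3 (adjusted p = 0.873) and 0.77 without D2 library 2 (adjusted p = 0.00155).

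Other transcripts moved in the same columns. In Exc-CA1-Galntl6, 12 of 38 tested markers of other cell types were lower in D2 and 5 higher. In Exc-Gpc6 these counts were 8 and 3 of 23, and in Inh-Lamp5 they were 2 and 1 of 18. Over all tested transcripts, 2381 were lower and 3512 higher of 16827 in Exc-CA1-Galntl6. The same counts were 1145 and 1425 of 13025 in Exc-Gpc6, and 570 and 656 of 10165 in Inh-Lamp5. Of their own markers, with those of excitatory neurons or interneurons included, 2 of 6 were lower in Exc-CA1-Galntl6 and 0 of 5 in Inh-Lamp5. Exc-Gpc6 had no list of its own, and of the 2 markers of excitatory neurons 0 were lower there. The cortical list, on which Exc-Gpc6 ranked 1, was counted among its markers of other cell types. Own markers that were higher numbered 0 in Exc-CA1-Galntl6, 0 in Exc-Gpc6 and 1 in Inh-Lamp5. The part of the markers in the results was not tested. Genes annotated inside a member on its own strand took 93 counts in D2 and 0 in B6 for Chrna7 (1 gene). For Chrm3 (4 genes) they took 790 counts in D2 and 607 in B6. The members Chrna7 and Chrm3 had 6462 and 28681 counts in D2. The 4 genes in Chrm3 were Gm47411 (349 in D2 and 0 in B6), 9330159N22Rik (15 and 0), Gm47405 (400 and 556) and Gm47404 (26 and 51). With the nested genes of both members added back, an alternative chosen after seeing the data, 15 pairs were lower and 1 higher. The genes Gm22820 (Chrm1), 9330158H04Rik (Chrm2), Gm26861 (Chrm3) and Adar (Chrnb2), among those counted, lie on the opposite strand across a member. Of these, Gm22820 had 724 counts in D2 and 0 in B6.

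The other genes of cholinergic transmission comprised 44 genes in 4 lists, of which 34 were tested in at least 1 cell type. Over 377 tested pairs, 31 (8.22%) were higher in D2 and 44 (11.7%) lower, with a median log2 fold change of -0.01, beside the 12.9% and 9.25% of all pairs. With counts required in both strains, 6.17% of all pairs were higher and 8.27% lower. The counts of the lists given here are without that requirement. Chaperones of nicotinic receptors and Ly6 proteins, which assemble or modulate the channels, held 19 higher calls of 106 (17.9%) and 0 lower ones (3 at unadjusted p under 0.05, 0 with DESeq2), where 12.9% of all pairs were higher. Genes of muscarinic signalling held 38 lower (17.3%) and 8 higher calls of 220, where 9.25% of all pairs were lower. The other nicotinic subunits held 2 lower calls, both of Chrna5, and 1 higher call, of Chrng, genes named here after their values were seen. Synthesis, transport and breakdown of acetylcholine held 4 lower and 3 higher calls of 31.

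Lynx1, a membrane-anchored protein that binds nicotinic receptors, was higher in D2 in 8 of 16 cell types. In Inh-Lamp5 it had 6.08 and 7.81 CPM in B6 and 19.0 and 29.4 CPM in D2 (1.72 ± 0.41, adjusted p = 0.00383, edgeR). In Exc-CA3 it had 58.9 and 53.5 CPM against 78.3 and 90.9 CPM (0.56 ± 0.11). Lypd1, Ly6h and Rgs4, a regulator of G-protein signalling, were each higher in 3 types. For Lypd1 in Exc-DG the values were 81.1 and 76.4 CPM in B6 and 130 and 128 CPM in D2 (0.69 ± 0.08).

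Itpr1, the calcium channel opened by inositol trisphosphate downstream of Gq, was lower in 9 and higher in 2 of 17 types. In Exc-DG it had 208 and 193 CPM in B6 and 71.2 and 68.1 CPM in D2 (-1.55 ± 0.08, adjusted p = 1.81e-09, edgeR). Plcb1, a phospholipase C, was lower in 7 types, as was Kcnq3, a subunit of the M-current channel that muscarinic receptors close. Plcb1 in Inh-MGE had 959 and 1017 CPM in B6 and 674 and 755 CPM in D2 (-0.51 ± 0.11). Bche, butyrylcholinesterase, which can break down acetylcholine, was lower in 4 of 13 types, and in Exc-DG it had 73.4 and 79.7 CPM against 58.3 and 49.9 CPM (-0.52 ± 0.10).

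**Figure D3:**
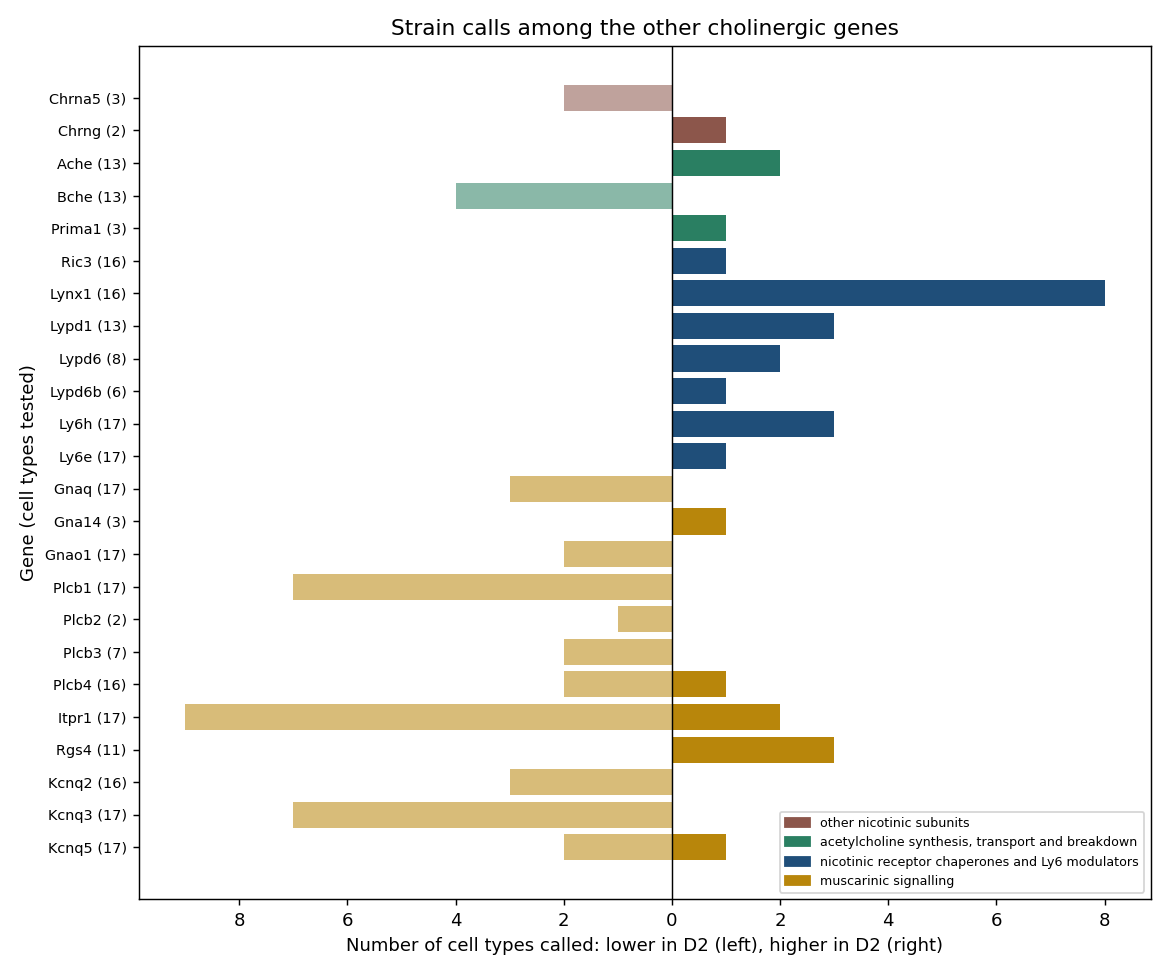
Number of cell types in which each other cholinergic gene was called lower in D2 (left) or higher in D2 (right), coloured by list (paler on the left), with the number of cell types tested in parentheses. Lynx1 reaches 8 on the right and Itpr1 reaches 9 on the left, and genes with no call are left out.

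Accessibility was read in 10 peaks within 1 kb of an annotated start of 7 members. No peak met this rule for Chrm4, whose window in RefSeq (chr2:91921939-91922238) lies upstream of the annotated start used here (chr2:91927249). Over the 127 tested pairs of peak and cell type, 1 was higher in D2, where 1.39% of all tested pairs of peak and cell type were higher, and 0 were lower, where 1.33% were lower (edgeR). At unadjusted p under 0.05, 2 were higher and 3 lower, and DESeq2 called none. The call was the peak chr2:112481628-112481961, upstream of Chrm5, in Exc-CA3, with 0.902 and 1.27 CPM in B6 and 2.72 and 1.74 CPM in D2 (1.07 ± 0.31, adjusted p = 0.0163). It was lost without B6 library 2, D2 library 2 or D2 library 3.

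The Chrna7 promoter peak (chr7:63211269-63212828) ranged over the 15 cell types from 15.6 CPM in Exc-CA1-Fras1 to 29.2 CPM ± 5.01 in NN-ODC, where the transcript was near its lowest. In Exc-CA1-Galntl6 the libraries had 19.8 and 16.6 CPM in B6 and 17.1 CPM in both D2 libraries (-0.07 ± 0.10, adjusted p = 0.835, edgeR). In Inh-Lamp5 they had 19.5 and 28.4 CPM against 32.6 and 29.7 CPM (0.33 ± 0.22, adjusted p = 0.805). Both D2 libraries of Inh-Lamp5 lay above both of B6 and the difference did not pass the test. The Chrm3 promoter peak (chr13:10358552-10361407) was most open in Inh-CGE, at 39.2 CPM ± 1.70, and least in NN-Astro, at 3.52 CPM. In Exc-CA1-Galntl6 it had 20.1 and 21.3 CPM in B6 and 20.1 and 22.8 CPM in D2 (0.09 ± 0.09, adjusted p = 0.752). In Exc-Gpc6 it had 18.8 and 14.3 CPM against 12.7 and 16.9 CPM (-0.03 ± 0.19), and the strains overlapped in both types.

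Over the 15 cell types, Pearson's r between the log2(CPM + 1) of the transcript and of its promoter peak was 0.87 for Chrm3, 0.85 for Chrm2, 0.76 for Chrna4 and 0.33 for Chrnb2. For Chrna7 it was -0.12. For the 3 peaks of Chrm1 it lay between 0.69 and 0.77. The other Chrm3 peak (chr13:9877649-9878078), at most 2.36 CPM in a cell type, had r = 0.49, and the Chrm5 peak had r = -0.23. These are descriptions over cell types that share their libraries and their class of neuron or glia. The Chrm2 peak (chr6:36387634-36389747) was most open in Exc-Gpc6, at 24.7 CPM ± 1.90, the type in which the transcript was highest, and next in Inh-MGE, at 21.0 CPM.

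**Figure D4:**
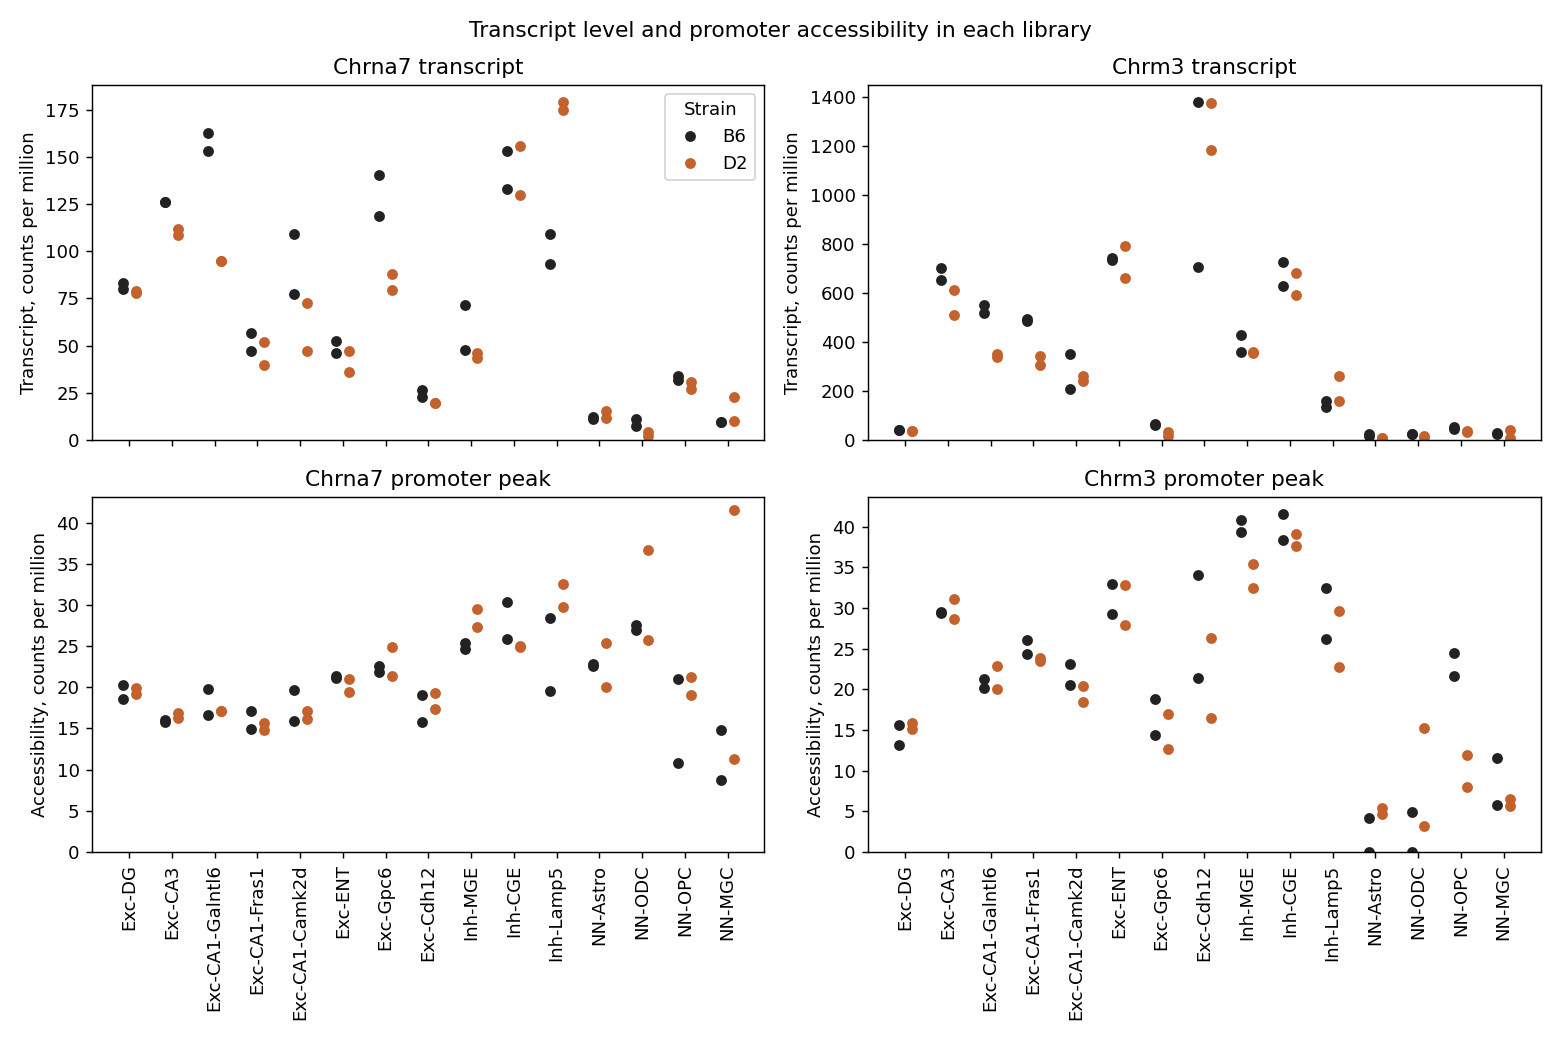
Transcript level (top, CPM) and accessibility of the promoter peak (bottom, CPM) of Chrna7 (left) and Chrm3 (right) in 15 cell types, with 1 point per library, and snRNA-seq and snATAC-seq from separate nuclei. In Exc-CA1-Galntl6 the strains are apart at the top (Chrna7 at 153 and 163 CPM for B6 against 95.0 and 94.8 CPM for D2) and overlap at the bottom.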

How the data were processed

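Counts per gene symbol (snRNA-seq) and per peak (snATAC-seq), summed by cell type and library, were deposited by the authors without normalization. They mapped reads with Cell Ranger 6.0.2 (introns kept) and Cell Ranger ATAC 2.0.0, called peaks with MACS per sample and merged them, removed doublets and named cell types with Seurat 4.0.5. A column was placed in a strain by its name and not on 1 sample. The 16 methylation samples were not analysed here. Members and lists were chosen with earlier results of these data known.

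The test was edgeR 4.0.16 (R 4.3.3; TMM; filterByExpr, or at least 10 counts for peaks; quasi-likelihood; Benjamini-Hochberg within a cell type). The interaction was adjusted over transcripts, and as the library was a term, its p-values rest on the spread of cell types within libraries. Each SE was derived as the absolute log2 fold change divided by the square root of the F statistic of edgeR. For a single value in 2 and 2 libraries, the smallest p of the exact permutation test is 0.333. Scripts were tested on simulated data. Alternatives were DESeq2 1.42.0, RLE normalization, other filters, adjustment over all cell types, the library number as a block, a 500 bp window, other level scales and each library left out. Named genes were the members, up to 4 listed genes per direction called in the most cell types, and the 3 genes most like each member (at least 5 CPM in a cell type). Gene models came from GENCODE vM21 (GRCm38). Depth sets the precision: low transcripts had few counts, as stated beside them.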

Additional observations from a re-analysis of the deposited data

Results flagged for a closer look

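The strain difference varied over the 17 cell types, by the interaction test of edgeR, for Chrna7 (adjusted p = 6.03e-06), for Chrm3 (adjusted p = 2.95e-05) and for Chrm1 (adjusted p = 0.0333). Of all 21050 transcripts in this test, 14.6% passed. For Chrm1 the result did not hold in neuronal types alone (adjusted p = 0.300, edgeR), and Chrm1 was called in 0 of 15 cell types. Chrna7 was lower in D2 in 12 of 14 tested cell types, Chrm3 in 13 of 17 and Chrm1 in 10 of 15, counting every log2 fold change below 0 whether or not it passed. The cell types share the same 4 libraries.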

How the results depend on the processing

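Of the 15 calls, 5 held under every alternative run: Chrm3 in Exc-CA1-Galntl6, Exc-CA1-Fras1 and Exc-Gpc6, and Chrna7 in Exc-CA1-Galntl6 and Exc-Gpc6. None of the 15 changed direction. Of the member pairs, DESeq2 called 7 lower and 0 higher in place of 14 and 1, and adjustment over all cell types at once called 2 higher. DESeq2 also called fewer of all transcripts in both directions in every cell type, without the filter on low counts. In Exc-CA1-Galntl6 it called 1362 lower and 2886 higher of 30075 transcripts, in place of 2381 and 3512 of 16827. Leaving out 1 library gave 11 to 13 lower and 1 to 2 higher. Among the other cholinergic genes DESeq2 called 25 lower and 11 higher in place of 44 and 31, and leaving out 1 library gave 29 to 39 lower and 19 to 35 higher. The interaction passed for 2 to 4 members. For promoter peaks the 1 higher call was 0 with DESeq2 and with the 500 bp window, and 0 to 1 with 1 library left out. The highest cell type was the same for 5 of 8 members on counts per nucleus and for 5 to 8 with 1 library left out. The cause was not tested.

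Of the 20 uncalled pairs of Chrm3 and Chrna7, those below changed sign under an alternative, and the uncalled pairs of the other members were not followed. With 1 library left out, Chrm3 ranged from -0.0750 to 0.427 in CR-CR, from -0.512 to 0.229 in Exc-CA1-Camk2d, from -0.152 to 0.839 in Exc-Cdh12, from -0.218 to 0.0573 in Exc-ENT, from -0.237 to 0.0136 in Inh-CGE and from -1.45 to 0.635 in NN-MGC, and Chrna7 from -0.137 to 0.0845 in Inh-CGE. In NN-MGC Chrm3 was -0.0282 with DESeq2 and -0.0111 with the replicate block.

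Same-numbered libraries showed no strong shared shift: their deviations correlated between -0.157 and 0.0653 over the snRNA-seq cell types. With 1 difference per strain this cannot settle whether they were prepared together, which the labels do not state. With the replicate block 15 pairs were lower and 1 higher. In Inh-MGE, where the correlation was -0.157, 1 member was called without the block, 2 with the replicate block and 2 with the crossed pairing, which was chosen after seeing the data. The depth of CR-CR and NN-VLMC limited tests of members there to Chrm3.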
